A study of Mus musculus with 10 samples.

Results

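A 2.5 Mb stretch of mouse chromosome 13, from 21200000 to 23700000 on build mm9, held 531 of the 46940 peaks in the 8 deposited peak lists that were analysed. The members are the peaks of RNA polymerase III (Pol III) and RNA polymerase II (Pol II) between these bounds. Members were chosen by position, and the stretch was selected on the density of Pol III peaks in these same lists, so the number of peaks in it, their clustering and their ranks describe the choice and carry no test. Pol III makes short non-coding RNAs, among them the transfer RNAs (tRNAs) that carry amino acids to the ribosome. Pol II makes messenger RNAs, including those of the replication-dependent histones, the proteins that package newly made DNA. In mammals the largest histone gene cluster lies on the same chromosome as a large group of tRNA genes.

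The study mapped both polymerases by chromatin immunoprecipitation sequencing (ChIP-seq) in 2 cell types, with 1 library per antibody and cell type. The ES-E14TG2a cells are a line of mouse embryonic stem (ES) cells, obtained from ATCC and grown on gelatinized plates with LIF. The other cell type was primary mouse embryonic fibroblasts (MEFs) from E12.5 embryos, used after 3 to 5 passages and grown without LIF. No treatment or mutation is recorded for either. Antibodies were directed against POLR3C, POLR3G and POLR3GL and, with the N-20 antibody, against Pol II. Within Pol III, POLR3C sits in a peripheral subcomplex together with POLR3G or its paralogue POLR3GL, and POLR3G is known for its expression in stem cells. With 1 library per group there is no replicate error, and the intervals below are exact Clopper-Pearson 95% intervals that cover counting error only. These intervals, and those given for medians, treat loci and peaks as independent, which neighbours in a cluster are not. Read depth is unknown, so list length and depth cannot be told apart from cell type.

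In ES cells the POLR3C list had 93 of its 317 peaks in the region, the POLR3GL list had 84 of 243 and the POLR3G list had 0 of 13. In MEFs these numbers were 88 of 275 for POLR3C, 88 of 264 for POLR3GL and 46 of 177 for POLR3G. The region therefore held between 26.0% and 34.6% of each Pol III list other than the short ES POLR3G list. For Pol II it held 86 of 32345 peaks in ES cells, or 0.266%, and 46 of 13306 peaks in MEFs, or 0.346%. Pol III peaks had 1 fixed width per list, between 142 and 224 bp, whereas Pol II peaks varied in width, and the region's median was 995.5 bp (ES cells) and 1034.5 bp (MEFs).

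Merging Pol III peaks that shared at least 1 bp across lists gave 99 loci in the region, of 389 in the whole series. Outside it, chromosome 13 held only 2 other loci, for 101 in all. The nearest locus before the region was chr13:4560526-4560677, 16639 kb from the lower bound, with an ES POLR3G score of 18 and an ES POLR3GL score of 20. The nearest locus after it was chr13:58560214-58560437, 34860 kb from the upper bound, with a MEF POLR3C score of 49. On the Pol III side the bounds therefore lie in long empty stretches. On the Pol II side the lower bound does too, with the nearest outside peak 507 kb away in ES cells and 974 kb away in MEFs. The upper bound does not, because the next Pol II peaks started 12.7 kb beyond it in ES cells and 11.3 kb beyond it in MEFs.

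The label of a tRNA and histone gene region could not be checked by position, since no mm9 annotation was used. The RefSeq gene table used here is for another build, GRCm38.p6, and its symbols were read only for their order along the chromosome. From n-TEctc11 to H1f1 it lists 304 genes, of which 104 are tRNA genes and 54 are histone genes. These 104 are nearly all of the 105 tRNA genes on chromosome 13 in the table, which has 430 tRNA genes in all. The order given here leaves aside 9 olfactory receptor, 8 zinc finger, 2 butyrophilin and 52 other genes of this stretch. It begins with 27 tRNA genes and goes on with 19 histone genes (H2bc13 to H4bc24) and 31 tRNA genes (n-TLtaa2 to n-TTagt1). It then has 5 histone genes (H2ac12 to H2bc11) and the single tRNA gene n-TSgct5. Vomeronasal receptors serve pheromone sensing, and a block of 75 of their genes and pseudogenes follows, 36 of them protein-coding. It is followed by 45 tRNA genes (n-TIaat15 to n-TMcat9) and 30 histone genes (H4c8 to H1f1). The tRNA blocks differ in what they carry by anticodon. The first has 6 genes for alanine tRNAs and 4 each for leucine, methionine and threonine tRNAs. The block of 31 has 7 for serine, 4 for isoleucine and 3 for aspartate, and the block of 45 has 8 for valine, 6 for alanine and 6 for tyrosine.

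Histone gene promoters carry known short motifs, among them the TATA box, the CCAAT box and, in H2B genes, an octamer that binds OCT1. The RefSeq promoter table (GRCm38.p6, 250 bases before to 50 after each start) matched 49 of the 54 histone gene symbols, with 50 promoters. Exact matches on either strand to TATAAA were in 29 of these 50 (58.0%), against 13.6% of all 32851 promoters in the table. CCAAT was in 42 of 50 (84.0%), against 37.4% of all. The octamer ATTTGCAT was in 5 of the 13 H2B promoters (38.5%), against 10.8% of the other 37 histone promoters and 1.74% of all promoters in the table. These motifs are different letters and their matches were counted separately. The promoter of H2bc12, a histone H2B gene in the block of 5, is shown because it holds all 3 motifs, with matches in capitals. It is read 5′ to 3′ on the + strand, at chr13:22035571-22035870 of GRCm38.p6, a position that is not comparable with the mm9 positions of the peaks. No peak was joined to it, and a match is not a binding site. Its only TATA match reads TTTATA here, so TATAAA is on the other strand, in the part of the window far before the gene start. The window of H2ac12, on the - strand at chr13:22035594-22035893, overlaps that of H2bc12 and holds the same TATA and octamer bases. The octamer of H2bc12 was thus counted again among the other 37 histone promoters, and the 2 groups are not wholly separate sequences.
H2bc12: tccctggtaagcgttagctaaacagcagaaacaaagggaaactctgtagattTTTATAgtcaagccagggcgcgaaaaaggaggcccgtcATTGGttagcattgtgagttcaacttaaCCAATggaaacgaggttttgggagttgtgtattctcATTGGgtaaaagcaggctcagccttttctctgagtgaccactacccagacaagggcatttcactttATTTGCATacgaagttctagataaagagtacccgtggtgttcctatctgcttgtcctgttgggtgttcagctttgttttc

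The 99 Pol III loci fell into 3 sub-clusters when loci at most 200 kb apart were joined. The first, chr13:21252621-21418704, held 25 loci over 166 kb. The second, chr13:21802402-22142702, held 34 loci over 340 kb, and the third, chr13:23362220-23622399, held 40 loci over 260 kb. Density was 15.1 loci per 100 kb in the first, 9.99 in the second and 15.4 in the third. The sub-clusters were parted by 384 kb and by 1.22 Mb without a Pol III peak in any list. In the stretch of 384 kb there were 10 Pol II peaks in ES cells and 6 in MEFs. The stretch of 1.22 Mb held none that lay wholly within it in either cell type.

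**Figure D1:**
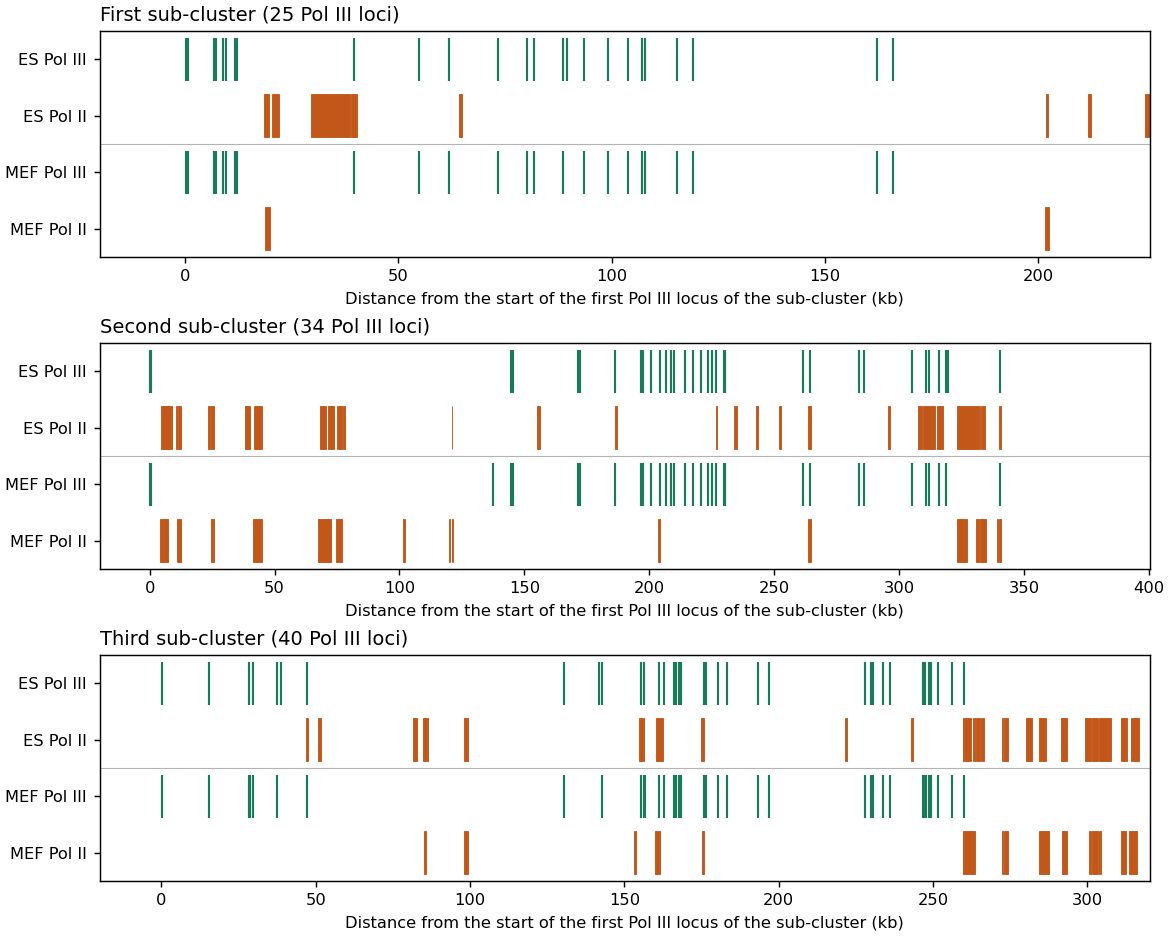
Positions of Pol III loci (green lines of fixed width at the locus midpoint) and Pol II peaks (orange, to scale with a thin outline) in ES cells and MEFs around the 3 sub-clusters, with distance from the first Pol III locus of each in kb on the x axis. Each panel runs past the end of its sub-cluster, and Pol II peaks are shown up to the region's upper bound; dense Pol II blocks follow the third sub-cluster and lie between the first 2 loci and the rest of the second.

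Neighbouring loci within a sub-cluster were a median of 3.18 kb apart, midpoint to midpoint (n = 96 spacings), with an order-statistic interval of 2.10 to 3.87 kb. The central part of the distribution was wide, with quartiles of 0.936 and 7.33 kb and extremes of 0.256 and 137 kb. Of the 96 spacings, 25 (26.0%) were under 1 kb, 40 were between 1 and 5 kb and 31 (32.3%) were 5 kb or more. The median was 3.88 kb in the first sub-cluster, 3.16 kb in the second and 2.50 kb in the third, and whether they differ was not tested. The third had 13 of the 25 spacings under 1 kb, against 7 in the second and 5 in the first. For scale, the other 6 clusters of at least 8 loci in the series held 69 loci with a median spacing of 1.87 kb, and 38.1% of their spacings were under 1 kb. Medians within single lists were 3.31 kb for POLR3C and 3.57 kb for POLR3GL in ES cells, and 3.51 kb for POLR3C, 3.52 kb for POLR3GL and 5.85 kb for POLR3G in MEFs.

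**Figure D2:**
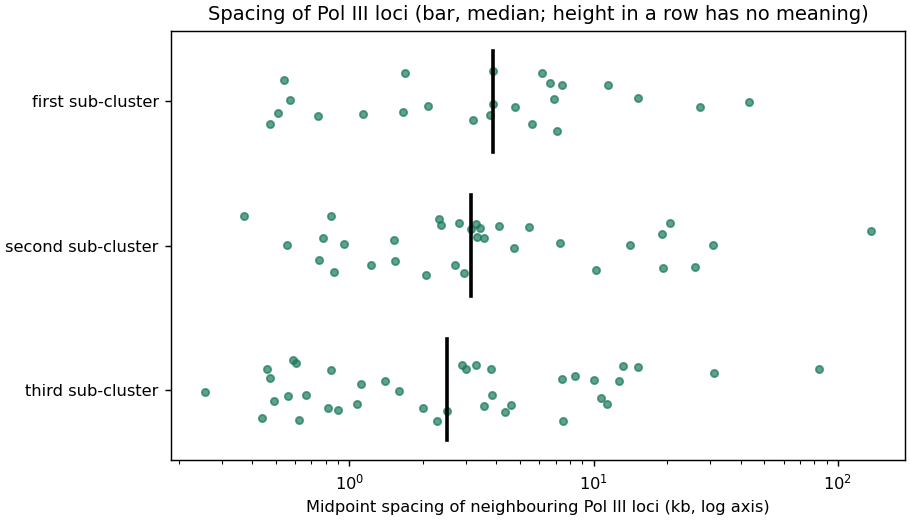
Midpoint spacing of neighbouring Pol III loci in each sub-cluster, in kb on a log axis, 1 point per spacing, with a black bar at the median (3.88, 3.16 and 2.50 kb). Points run from 0.256 to 137 kb, and the height of a point within its row has no meaning.

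The closest neighbours lay within the size of the sonicated fragments, which the labels give as 200 to 700 bp on average. Of the 96 spacings 16 were under 700 bp, and how well peaks so close were resolved was not tested. In the third sub-cluster the shortest spacing was 256 bp, between chr13:23390538-23390801 and chr13:23390852-23390999. No list called both of these: the second was called by MEF POLR3G alone, with a score of 17. Of the 25 pairs under 1 kb apart, 6 were called at both loci by 5 lists and 6 by 4 lists, so these pairs were seen as separate peaks within single libraries. In the first sub-cluster the shortest spacing was 475 bp, between chr13:21259360-21259573 and chr13:21259830-21260053, and 3 lists called both. The second sub-cluster opened with its shortest spacing, 372 bp, between chr13:21802402-21802567 and chr13:21802745-21802968, also with 3 lists at both. Crowding was greatest near the end of the third, where 5 loci lay within chr13:23608956-23611625 at spacings of 494, 474, 900 and 563.5 bp. The middle locus, chr13:23609962-23610109, was called by MEF POLR3GL alone, with a score of 30 (percentile 19.5). The spacings of 474 and 900 bp rest on it.

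The widest spacing inside a sub-cluster was 137 kb, in the second, between its first 2 loci and the rest. That Pol III-free stretch, chr13:21802969-21939777, held 21 Pol II peaks in ES cells and 14 in MEFs. In the third sub-cluster the widest spacing was 83.4 kb, and its Pol III-free part, chr13:23409445-23492556, held 4 Pol II peaks in ES cells and 2 in MEFs. The widest spacing of the first, 43.1 kb between chr13:21371444-21371745 and chr13:21414578-21414854, held no Pol II peak in either cell type.

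Most loci were called in both cell types. ES cells had 95 of the 99 loci in at least 1 list and MEFs had 95, with 91 (91.9%) in both, against 176 of the 290 loci outside the region (60.7%) and 68.6% of all loci. With only peaks at or above the median score of their list, 37 of 68 loci were called in both. The share outside the region is not given for this cut, so this value is not comparable with the 60.7%. Loci called by 1 list alone were named after their values were seen. The 4 loci of ES cells alone each rested on POLR3C alone, at chr13:21342117-21342330 (score 650), chr13:22121864-22122077 (793), chr13:23400795-23401008 (286) and chr13:23503911-23504124 (650). These 4 scores are all in the lower part of the ES POLR3C list. Of the 4 loci of MEFs alone, chr13:23518893-23519116 was called by 2 lists, with a POLR3C score of 171 and a POLR3GL score of 26. It is the only locus in the region that 2 or more lists called in 1 cell type and none in the other. The other 3 rested on 1 MEF list each, POLR3C at chr13:21939778-21940001 (score 69), POLR3G at chr13:23390852-23390999 (17) and POLR3GL at chr13:23609962-23610109 (30).

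POLR3C, the subunit common to both forms of the enzyme, called 93 of the 99 loci in ES cells (93.9%, interval 87.3 to 97.7%), against 81.5% of all loci of the series. In MEFs it called 88 (88.9%, 81.0 to 94.3%), against 70.7% of all loci. POLR3GL called 84 loci in ES cells (84.8%, 76.2 to 91.3%), against 62.5% of all loci, and 88 in MEFs (88.9%), against 67.9% of all. For these 2 subunits the region stood above the whole series in both cell types, but it was selected on these same peaks.

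For POLR3G the region did not stand above the whole series. In ES cells it called 0 of the 99 loci (interval 0 to 3.66%), against 3.34% of all loci, and whether the 13 peaks of its list are the whole of it is not known, so this 0 describes only these 13 peaks. In MEFs it called 46 (46.5%, 36.4 to 56.8%), close to the 45.5% of all loci. By sub-cluster, MEF POLR3G called 12 of 25, 13 of 34 and 21 of 40 loci. All 5 lists other than ES POLR3G called 43 loci (43.4%), against 37.5% of all loci. All of these but MEF POLR3G called 35 loci (35.4%), a pattern found at 22 of the 290 loci outside the region (7.59%).

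Within MEFs, POLR3G was present at 45 of the 88 POLR3GL loci in the region (51.1%, 40.2 to 61.9%), against 128 of 176 outside it (72.7%, 65.5 to 79.2%) and 65.5% of all. Region and rest also differed in POLR3GL score, and the share with POLR3G went with that score in both. Bands were cut at the quartile scores of the MEF POLR3GL list, with ties in the lower band, so a band need not hold exactly 25% of the peaks. In the lowest band (scores 15 to 33), 2 of 32 region loci had POLR3G (6.25%), against 5 of 35 elsewhere (14.3%). In the next band (34 to 49) these were 20 of 33 (60.6%), against 24 of 36 (66.7%). In the 2 upper bands (50 to 62 and 63 to 100) all 18 and all 5 region loci had POLR3G, against 52 of 56 and 47 of 49 elsewhere. Within a band of POLR3GL score the region and the rest were thus closer than in the pooled shares, and 32 of the 88 region peaks lay in the lowest band. POLR3GL scores at region loci had a median of 51 with POLR3G and 30 without it, against 60.5 and 30 elsewhere. The lowest score was 15 in both the MEF POLR3G and the MEF POLR3GL list, and the median MEF POLR3G score was 25. The part of peak calling thresholds in the shares with POLR3G was not tested.

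Scores have no stated scale, so they were ranked within each list, with 100 as the highest percentile. Ranks of the region differed between lists. In ES cells POLR3C peaks of the region had a median percentile of 61.2, against 43.4 for the rest of that list, with median scores of 1794 and 1391. ES POLR3GL peaks had a median percentile of 47.7 in the region and 47.7 elsewhere. In MEFs the region sat lower than the rest in every Pol III list. Its median percentile was 43.1 (POLR3C), 41.5 (POLR3G) and 33.7 (POLR3GL), against 56.7, 52.0 and 58.3 elsewhere.

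**Figure D3:**
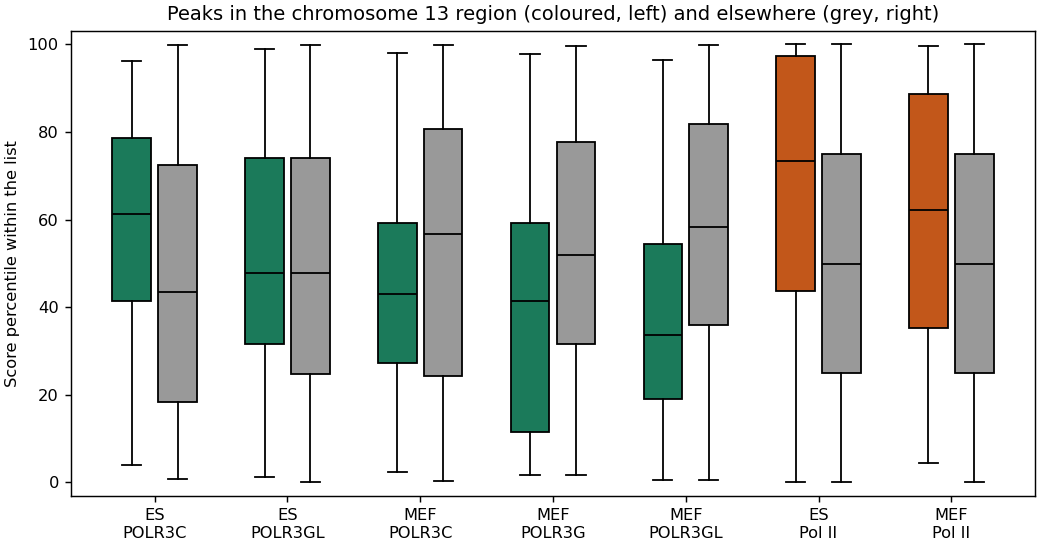
Score percentile within each list for peaks of the region (coloured boxes, left) and all other peaks of that list (grey boxes, right); boxes span the quartiles, lines mark medians and whiskers reach the lowest and highest peak. The region's median lies above the rest for ES POLR3C and both Pol II lists and below it for the 3 MEF Pol III lists.

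The tails showed the same contrast. Of the ES POLR3C peaks in the region 32.3% were in the top 25% of their list and 7.53% in the bottom 25%. Of the MEF POLR3GL peaks in the region 7.95% were in the top 25% and 36.4% in the bottom 25%. Among the 10 highest peaks of each list the region held 0 for ES POLR3C and 4 for ES POLR3GL, and 1 each for POLR3C, POLR3G and POLR3GL in MEFs. By sub-cluster, the median percentile of ES POLR3C was 62.6 in the first, 53.5 in the second and 69.6 in the third. For MEF POLR3C these medians were 46.7, 30.0 and 45.5, and for MEF POLR3GL 33.7, 29.2 and 38.4. The second sub-cluster had the lowest median in these 3 lists and in ES POLR3GL, at 42.2, against 47.7 in the first and 60.3 in the third. It had the highest in MEF POLR3G, at 46.6, against 39.1 in the first and 39.3 in the third.

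The locus chr13:23558877-23559138 in the third sub-cluster ranked high in 4 lists. It scored 2509 (POLR3C) and 60 (POLR3GL) in ES cells, and 286 (POLR3C), 24 (POLR3G) and 75 (POLR3GL) in MEFs. It held the highest region peak of the ES POLR3GL, MEF POLR3C and MEF POLR3GL lists, at ranks 3, 6 and 10, whereas its MEF POLR3G percentile was 46.6. The locus chr13:22114187-22114412 in the second sub-cluster had an ES POLR3C score of 2600, tied for the highest in the region with the peak chr13:21371532-21371745. Its other scores were 43 for ES POLR3GL, and in MEFs 278 (POLR3C), 30 (POLR3G) and 71 (POLR3GL). The highest MEF POLR3G peak of the region, chr13:21802782-21802929, had a score of 42 at rank 4.5 and lies in the second locus of the second sub-cluster.

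Among the other high peaks, ES POLR3C had a score of 2561 at chr13:21252623-21252836, the first locus of the region. ES POLR3GL had 53 at chr13:23492676-23492817 and 52 at chr13:21947872-21948013. MEF POLR3C had 274 at chr13:21292003-21292226, where MEF POLR3GL had 71 at chr13:21292036-21292183, a score it also had at chr13:21802808-21802955. MEF POLR3G had 34 at chr13:21802402-21802549 and 33 in 3 peaks, 1 of them chr13:21261566-21261713. The loci with these peaks are spread over all 3 sub-clusters. At the low end, ES POLR3C had 286 at chr13:23400795-23401008, 494 at chr13:22063611-22063824 and 520 at chr13:23518307-23518520. MEF POLR3C had 46 at chr13:22063638-22063861, 56 at chr13:21359529-21359752 and 69 at chr13:21939778-21940001. The locus at chr13:22063611-22063861 was thus among the lowest of the region in both cell types, and only POLR3C called it. ES POLR3GL had its lowest score, 16, at chr13:22025818-22025959, and 18 at both chr13:22142494-22142635 and chr13:23390660-23390801. The lowest MEF POLR3GL scores were 15, in the loci starting at 21360264 and 22019614, and 16 at chr13:22016791-22016938. The 3 lowest MEF POLR3G peaks tied at 15, in the loci starting at 22003071, 22120973 and 23589869.

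The edge loci of the sub-clusters differed among themselves. The first locus of the first sub-cluster, chr13:21252621-21252844, scored 2561 (POLR3C) and 40 (POLR3GL) in ES cells, and 240 (POLR3C), 29 (POLR3G) and 62 (POLR3GL) in MEFs. Its last, chr13:21418465-21418704, had 2067 for POLR3C and 34 for POLR3GL in ES cells, and 215 for POLR3C and 42 for POLR3GL in MEFs. The second sub-cluster began with a locus without POLR3C in either cell type, chr13:21802402-21802567, with POLR3GL scores of 36 in ES cells and 57 in MEFs and a MEF POLR3G score of 34. It ended with chr13:22142447-22142702, at 793 for POLR3C and 18 for POLR3GL in ES cells, and 180 for POLR3C and 35 for POLR3GL in MEFs. The third began with chr13:23362220-23362444, which only POLR3C called, at 767 in ES cells and 97 in MEFs. It ended with chr13:23622099-23622399, with 2522 (POLR3C) and 36 (POLR3GL) in ES cells, and 252 (POLR3C), 33 (POLR3G) and 69 (POLR3GL) in MEFs.

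**Figure D4:**
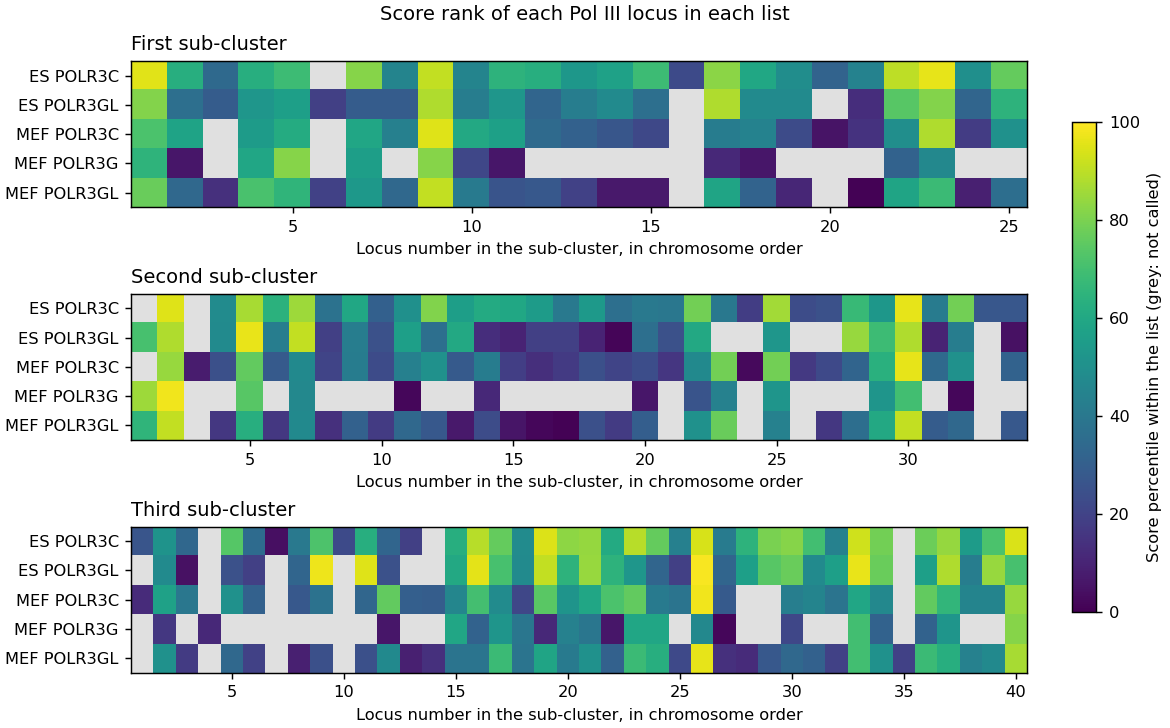
Score percentile of each Pol III locus (columns, in chromosome order) in each of 5 lists (one line of cells each), by sub-cluster, on a colour scale of 0 to 100; grey marks loci that the list did not call. Grey cells are most common for MEF POLR3G, which called 46 of the 99 loci.

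Scores in different lists went together across loci, to differing degrees. These are descriptions over loci of the same libraries, which are not independent. Between cell types, Spearman's rho in the region was 0.72 for POLR3C over 86 loci and 0.63 for POLR3GL over 83 loci, against 0.67 over 160 and 0.65 over 141 elsewhere. Within ES cells POLR3C and POLR3GL had a rho of 0.76 over 82 loci in the region, against 0.87 over 133 elsewhere. Within MEFs the same pair had 0.87 over 82 loci, against 0.77 over 155 elsewhere, and POLR3G and POLR3GL had 0.78 over 45 loci, against 0.71 over 128. With the other lists MEF POLR3G had a lower rho in the region, each over 44 loci. It was 0.48 with MEF POLR3C, 0.56 with ES POLR3C and 0.43 with ES POLR3GL, against 0.45, 0.48 and 0.48 elsewhere.

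Some loci took very different places in the lists of the 2 cell types. The largest shift for POLR3GL was at chr13:23492557-23492853, at percentile 97.5 in ES cells (score 53) and 24.4 in MEFs (33). The next locus with POLR3GL in ES cells, chr13:23504695-23504980, was similar, at 95.1 in ES cells (49) and 24.4 in MEFs (33). The largest shift the other way was at chr13:23545267-23545514, at 32.5 in ES cells (26) and 62.5 in MEFs (56). For POLR3C the extremes were chr13:21340952-21341211, at 68.6 in ES cells (1924) and 21.6 in MEFs (148), and chr13:23517425-23517727, at 32.6 in ES cells (1040) and 75.8 in MEFs (243). These were chosen after their values were seen, and with 1 library per list no error can be given.

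Pol II peaks overlapped few Pol III loci of the region. In ES cells 14 of the 95 ES-called loci shared at least 1 bp with a Pol II peak (14.7%, 8.30 to 23.5%), against 96 of 255 elsewhere (37.6%, 31.7 to 43.9%) and 31.4% of all ES loci. In MEFs 6 of 95 did (6.32%, 2.35 to 13.2%), against 87 of 211 elsewhere (41.2%, 34.5 to 48.2%) and 30.4% of all MEF loci. The other 6 clusters of at least 8 loci were also low, at 11 of 62 in ES cells (17.7%) and 13 of 64 in MEFs (20.3%). The median distance of a region locus to the nearest Pol II peak was 8.29 kb in ES cells and 16.2 kb in MEFs, against 1.90 kb and 0.598 kb elsewhere. By sub-cluster the overlapping loci numbered 1 of 25, 7 of 33 and 6 of 37 in ES cells, and 0 of 24, 3 of 33 and 3 of 38 in MEFs.

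The ES share was also taken with a shorter ES Pol II list, which can only keep or lower it. When that list was cut to its 13306 highest peaks, the length of the MEF list, 5 of 95 ES loci overlapped Pol II (5.26%, 1.73 to 11.9%), against 58 of 255 elsewhere (22.7%, 17.7 to 28.4%). The region was thus below the rest at both lengths, and at equal length its ES share was not above the MEF share of 6.32%.

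Pol II overlapped 5 of the loci in both cell types, and 84 loci in neither. In the second sub-cluster these 5 include chr13:22066781-22067007, with an ES POLR3C score of 2262 and a MEF POLR3C score of 246, and the last locus at 22142447. In the third they are chr13:23523193-23523457, chr13:23537975-23538203 and the last locus at 23622099, with ES POLR3C scores of 1820, 2210 and 2522 and MEF POLR3C scores of 209, 227 and 252. A further 9 loci were overlapped in ES cells alone and 1 in MEFs alone, chr13:22006652-22006879. That locus and the next ones were named after their values were seen. Among the 9, the loci at chr13:22112955-22113192 and chr13:22114187-22114412 lay in the same ES Pol II peak, chr13:22111763-22116573, which is 4811 bp long and has a score of 623.55.

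Pol II peaks in the region were more often shared between cell types than the lists as a whole. In ES cells 40 of 86 overlapped a MEF Pol II peak (46.5%, 35.7 to 57.6%), against 27.0% of all ES Pol II peaks. In MEFs 37 of 46 overlapped an ES peak (80.4%, 66.1 to 90.6%), against 62.1% of all MEF Pol II peaks. Shared peaks ranked above the others, with a median percentile of 96.4 for shared and 51.5 for unshared peaks in ES cells, and 67.6 and 23.1 in MEFs. Region peaks as a whole ranked above the rest of their lists, at a median percentile of 73.4 in ES cells and 62.1 in MEFs, against 49.9 and 50.0 elsewhere. Sharing in the region was not compared with the lists at equal rank, so its higher share cannot be told apart from the higher ranks. In ES cells 37 of the 86 were in the top 10% of the list (43.0%), and in MEFs 11 of the 46 (23.9%). Many Pol II peaks were near-contiguous pieces: 34.1% of gaps between neighbours in ES cells and 26.7% in MEFs were under 200 bp, against 14.7% and 2.80% over the whole lists, so numbers of peaks are not numbers of genes.

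Most of the high Pol II peaks lay beyond the third sub-cluster or within the span of the second. The 77.6 kb after the third sub-cluster held 19 ES peaks with a median percentile of 98.1 and 11 MEF peaks with a median percentile of 93.6. The second sub-cluster spanned 37 ES peaks, 19 of them in the top 10% of the list, and 22 MEF peaks, 5 of them in the top 10%. The first sub-cluster had 7 ES peaks and 1 MEF peak, and the third had 12 ES peaks and 5 MEF peaks, with median percentiles of 51.5 in ES cells and 33.7 in MEFs. The 10 ES peaks between the first and second sub-clusters had a low median percentile of 36.5, while the 6 MEF peaks there had one of 65.4.

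The highest ES Pol II peak of the region was chr13:23666606-23667797, with a score of 3198.47 at rank 5, and it overlapped no MEF peak. It was followed by chr13:21808557-21809655 (3138.12) and chr13:21878959-21879575 (3133.70). Next came chr13:21845527-21846135 and chr13:21870513-21872796, both at 3100.00, a value shared by 8 peaks of the region and 370 of the list, of which these are the first 2 by position. In MEFs the highest were chr13:23646364-23649771 (1125.38, rank 44), chr13:23635097-23636519 (1001.35) and chr13:23654098-23655481 (694.50). They were followed by chr13:21808545-21809661 (662.93) and chr13:23663600-23665755 (640.10), and all 5 overlapped an ES peak. Pol II at 21808557 in ES cells and 21808545 in MEFs overlap each other and lie 5.59 kb and 5.58 kb from the nearest Pol III locus of that cell type. The other 6 tied ES peaks were chr13:22127290-22134528, near the end of the second sub-cluster, and 5 at or beyond the end of the third. All of these high peaks of both lists thus lay within the span of the second sub-cluster or from the last locus of the third onward. A stretch with high Pol II in ES cells alone lay in the first sub-cluster, where chr13:21285771-21290655 had a score of 1786.07 at rank 887, 1.35 kb from a Pol III locus. That peak was named after its value was seen.

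To describe alternation, Pol III loci and Pol II peaks were ordered by midpoint and cut into runs of 1 polymerase. In ES cells 95 loci and 86 Pol II peaks made 50 runs, so that 49 of 180 neighbouring pairs (27.2%) switched polymerase. In MEFs 95 loci and 46 Pol II peaks made 24 runs, with 23 switches in 140 pairs (16.4%). Most features lay in blocks, while many runs were single: 66 of the 95 ES loci (69.5%) and 87 of the 95 MEF loci (91.6%) lay in runs of 5 or more, as did 60 of the 86 ES Pol II peaks (69.8%) and 37 of the 46 MEF Pol II peaks (80.4%). Of the 50 ES runs, 9 were a single Pol III locus and 17 a single Pol II peak, and of the 24 MEF runs 1 was a single locus and 7 a single Pol II peak. The median Pol II run was 1 peak in both cell types, and the median Pol III run was 2 loci in ES cells and 7.5 loci in MEFs. With the ES Pol II list cut to the MEF length, ES cells had 22 runs and 21 switches in 148 pairs (14.2%). Leaving out Pol II peaks can only keep or lower the number of runs. The cut therefore cannot tell why ES cells had more switches, which was not tested.

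**Figure D5:**
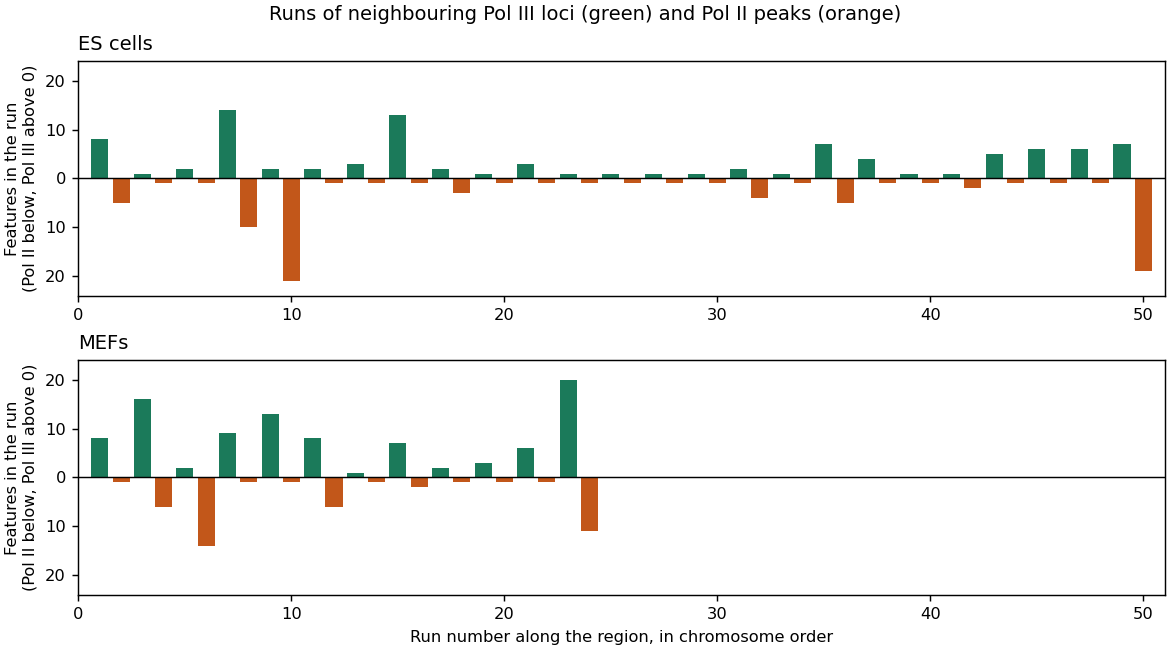
Length of each run of neighbouring Pol III loci (green, above 0) and Pol II peaks (orange, below 0) along the region in ES cells (upper panel, 50 runs) and MEFs (lower panel, 24 runs), in chromosome order. Long Pol II runs of 21 and 19 peaks in ES cells and 14 and 11 peaks in MEFs stand among shorter ones.

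The longest Pol II runs were in the same places in both cell types. In ES cells the longest had 21 peaks over 117 kb, chr13:21806922-21923533, and in MEFs it had 14 peaks over 117 kb, chr13:21806574-21923708. The run at the end of the region had 19 peaks in ES cells and 11 in MEFs, and the upper bound ends it, since Pol II peaks go on beyond. The longest Pol III run had 14 loci in ES cells, chr13:21325797-21418704 over 92.9 kb, and 20 loci in MEFs, chr13:23537975-23622399 over 84.4 kb. In MEFs the first of these places was covered by a run of 16 loci, chr13:21292003-21418704. The second of them was cut in ES cells by single Pol II peaks at chr13:23583725-23584470 and chr13:23605064-23605740. Their scores were 252.78 (percentile 72.9) and 50.50 (percentile 0.611), and the lowest score of that list is 50.

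The share of switches differed along the region, but it is limited by the number of Pol II peaks. In ES cells 19.4% of neighbouring pairs switched in the first sub-cluster, 34.8% in the second and 29.2% in the third. In MEFs these shares were 8.33%, 14.8% and 19.0%. The sub-clusters spanned 7, 37 and 12 Pol II peaks in ES cells, and 1, 22 and 5 in MEFs. A single Pol II peak allows at most 2 switches, the number found in the first sub-cluster in MEFs. These shares therefore do not measure alternation apart from the number of Pol II peaks. Near the end of the second sub-cluster ES cells alternated peak by peak, with 9 runs of 1 feature in a row from the Pol II peak at chr13:22098038-22098847 to the one at chr13:22118828-22119845. Of the 4 loci in this stretch, 3 overlapped one of its Pol II peaks, so the alternation there is partly of features that share bases. MEFs had no Pol II peak there, and a single Pol III run of 8 loci, chr13:22066781-22121230, covered the same place. The ES run of 4 Pol II peaks that follows, chr13:22125594-22136561, was in the top 10% of its list throughout, and MEFs had a run of 6 peaks there.

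The Pol III loci form groups of 27, 31, 1 and 40 when parted at the ES Pol II runs of 21 and 4 peaks and at the 1.22 Mb stretch without Pol III. ES Pol II runs of 5, 10 and 5 peaks, each longer than the run of 4, were not used as cuts. Their median percentiles were 72.1, 36.5 and 65.7, and cuts there would give other groups. The group of 27 is the first sub-cluster with the first 2 loci of the second and ends at the run of 21 ES Pol II peaks. The group of 31 ends at the run of 4, the single locus is chr13:22142447-22142702, beside the 1.22 Mb stretch, and the group of 40 is the third sub-cluster, followed by the run of 19. In ES cells the run of 21 had a median Pol II percentile of 95.6, with a lowest value of 4.35 and 15 peaks in the top 10%, the run of 4 had a median of 98.2 and the run of 19 one of 98.1. MEF Pol II peaks at the same places were of middle rank for the first 2, with medians of 58.9 and 54.6, and high for the third, at 93.6. The ES lists called 27, 30, 1 and 37 of these, and the MEF lists called 26, 30, 1 and 38. Set beside them, the GRCm38.p6 order gives 27, 31, 1 and 45 tRNA genes. These are parted by 19 and 5 histone genes and 75 vomeronasal receptor genes and pseudogenes, and followed by 30 histone genes. Other gene kinds of the stretch were left aside, and counting them could part these blocks further. The 1.22 Mb without a Pol III peak, and with no Pol II peak beyond the one at its edge locus, stands at the place of the vomeronasal block in that order. The orders were compared as numbers only and not joined by position, the choice of Pol II runs was made with the gene order known, and which peak belongs to which gene was not tested.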

How the data were processed

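Peak lists of 8 immunoprecipitated libraries were used, and the 2 input libraries were not analysed here. CASAVA, Bowtie, SAMtools and HOMER, with build mm9, are named in the submitters' processing notes. No source used here gives the calling thresholds, the control or the read depth, which is therefore unknown. The deposited score of each peak is the authors' own value on an unstated scale: whole numbers in the 6 Pol III lists, and values with 2 decimals in the 2 Pol II lists, whose peaks are named as MACS peaks. Scores only ranked peaks within a list, with ties given their mean rank. There is 1 list per library. No source used here says whether samples were pooled.

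Positions were taken as 0-based starts and are printed 1-based. Pol III peaks sharing at least 1 bp were merged into loci, loci up to 200 kb from each other formed sub-clusters, and spacing is between midpoints. Intervals are exact binomial 95% intervals, or order-statistic intervals for medians. The code was tested on simulated peaks. Python 3.11.15, numpy 2.4.6, scipy 1.17.1, pandas 2.3.3 and matplotlib 3.10.9 were used.

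The region, the loci and the groupings were chosen with earlier results of these data known, and no test of significance was made. Loci are named by a rule: sub-cluster edges, the 3 highest and 3 lowest peaks of each Pol III list, loci of 1 cell type called by 2 or more lists, extreme spacings, loci under Pol II in both cell types, the 5 highest Pol II peaks per cell type, nearest loci outside the bounds and longest runs. All others, among them the stretches named as crowded, as alternating or as single Pol II peaks, were chosen after their values were seen. Alternatives varied the overlap, the score cut, the joining distance, the bounds, the ranking, the Pol II window and the length of the ES Pol II list.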

Additional observations from a re-analysis of the deposited data

How the results depend on the processing

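Of 41 alternative values of 15 results, 26 stayed within tolerance (counts within 1.5 times, other values within the interval of the reported one) and 15 moved. With only peaks at or above the median score of their list, 37 of 68 loci were called in both cell types (91 of 99 with all peaks) and the median spacing was 4.21 kb. In the same way Pol II overlapped 7.37% of ES loci and 2.11% of MEF loci, and there were 30 runs in ES cells and 14 in MEFs. Shares outside the region are not given for this score cut, so these values have no background. Widening peaks by 500 bp gave 70 loci, 68 of them in both cell types, with a median spacing of 4.75 kb. Joining at 50 kb gave 5 sub-clusters and at 100 kb 4. Counting Pol II within 5 kb gave 34.7% of ES loci and 23.2% of MEF loci. Outside the region these shares were 56.5% and 64.5%, and over all loci 50.6% and 51.6%. Leaving out overlapping features gave 28 runs in ES cells and 14 in MEFs. With the ES Pol II list cut to the MEF length, the overlap was 5.26% of ES loci, there were 22 ES runs and 61.1% of 54 ES Pol II peaks were shared. Of the 46 MEF Pol II peaks of the region 67.4% overlapped the cut list. Shares over the whole Pol II lists are not given at that length. Medians of score percentile stayed within their intervals under both other rankings. No paired analysis was possible because there is 1 library per antibody and cell type and the labels give no replicate numbers. Unknown depth and list length limit every comparison of cell types.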

Other observations

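The scores of the ES POLR3C list have a step: 314 of its 317 scores (99.1%) are whole multiples of 13, against 2.82% to 8.33% in the other Pol III lists. The reason was not tested, and the scores were used as ranks only.

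Just inside and outside the lower bound, the nearest ES Pol II peaks were chr13:21271217-21272406 (score 310.70) inside and chr13:20692128-20692678 (61.57) outside, and the nearest MEF peaks were chr13:21271252-21272425 (191.29) inside and chr13:20225748-20226219 (70.86) outside. At the upper bound the last inside was chr13:23677668-23678790 (1257.24) in ES cells and chr13:23677687-23678328 (227.80) in MEFs. The first outside was chr13:23712707-23714012 (391.95) in ES cells and chr13:23711283-23714816 (1693.82) in MEFs.

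In the third sub-cluster 3 loci, named after their values were seen, lay within chr13:23591870-23593016. POLR3C and POLR3GL called all 3 in ES cells, with POLR3C scores of 1859, 2106 and 2158, whereas MEF POLR3C called the last alone, with a score of 205. MEF POLR3GL called all 3, with scores of 25, 35 and 41.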
